A study of Mus musculus with 10 samples.

Results

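Transcripts of 8 genes of the TALE homeobox class were followed in mouse embryonic stem cells: Meis1, Meis2 and Meis3, Pbx2, Pbx3 and Pbx4, and Pknox1 and Pknox2. They were chosen by gene symbol, as listed members of the Meis, Pbx and Pknox families, and all 8 were found among the 52636 gene identifiers of the count tables. Cells of the E14 line, a mouse embryonic stem cell line, had been moved to medium without LIF and the inhibitors of MEK and GSK3 that hold them in self-renewal. Both groups received retinoic acid, at a labelled 2 µM, for 24 h before RNA sequencing. WT cells were unedited, and CBE-KO cells lacked a CTCF binding element that the series title ties to enhancers next to the HoxA cluster, with 2 libraries per group. A group without retinoic acid is not analysed here, so induction by the drug itself is not described. The design text speaks of biological replicates; whether the CBE-KO libraries come from 1 clone is not stated.

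TALE homeodomain proteins carry an extended loop in the homeodomain and bind DNA together with Hox proteins, which alone have low sequence preference. Pbx proteins contact Hox proteins directly, while Meis and Pknox proteins bind Pbx, hold it in the nucleus and add a DNA contact of their own. In the embryo, retinoic acid and these cofactors act with the anterior Hox genes in patterning the hindbrain.

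The libraries held 14108038 to 15632960 counts, so that 3 counts, taken as the floor of detection, corresponded to 0.192 to 0.213 CPM (counts scaled per 1000000 counts of a library). The floor covers counting error only. The groups also differed outside the deleted element. The 5 Y-linked genes checked summed to 0.871 and 1.30 CPM in the WT libraries and to 150 and 159 CPM in the CBE-KO libraries. This difference and the loss of the element cannot be told apart in any comparison of the groups. Of 16005 genes tested with edgeR's quasi-likelihood test, 6895 (43.1%) passed an adjusted p of 0.05, 3461 (21.6%) higher and 3434 (21.5%) lower in CBE-KO. With library totals in place of trimmed-mean (TMM) scaling the split was 4764 higher and 2355 lower, and the median over all genes moved from 0.0067 to 0.11 in log2 fold change.

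All 8 TALE genes were expressed in all 4 libraries. The lowest count of any member was 38, for Meis3, which is 12.7 times the floor. The members changed unevenly: Meis1, Meis2, Pbx3 and Pbx4 rose in CBE-KO, Pbx2 fell, and the differences of Meis3, Pknox1 and Pknox2 did not pass. The 5 of 8 members that passed stand beside 43.1% of all genes, the 4 that rose beside 21.6%, and the 1 that fell beside 21.5%. All 8 entered the test, with a median log2 fold change of 0.19 against 0.0067 over all genes tested. Summed over the 8 genes, expression was 285 and 287 CPM in WT and 292 and 286 CPM in CBE-KO, so the summed level overlapped between the groups. Pbx2 gave 188 and 191 CPM of the WT sums and 156 and 154 CPM of the CBE-KO sums. Its fall thus offset the rises of other members in this sum. Levels are not ranked between genes, because counts rise with transcript length and transcript lengths were not used here.

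**Figure D1:**
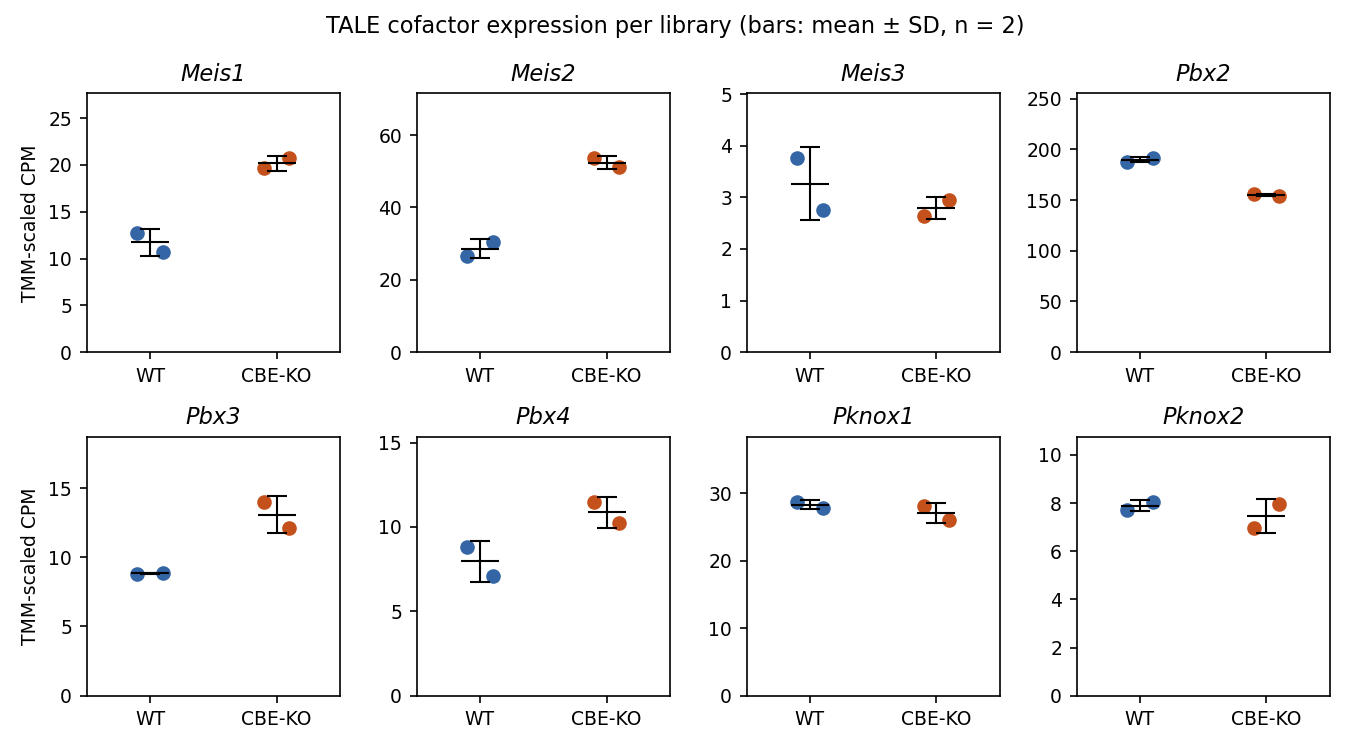
Expression of the 8 TALE genes in TMM-scaled CPM (vertical axes, each starting at 0) for WT (blue) and CBE-KO (orange) libraries, with 1 point per library and bars for the mean ± SD, n = 2. Both CBE-KO points lie above both WT points for Meis1, Meis2, Pbx3 and Pbx4 and below them for Pbx2, and the points overlap for Meis3, Pknox1 and Pknox2.

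The Meis genes were compared first, since Meis2 is known as a gene induced by retinoic acid. Meis2 (ENSMUSG00000027210; RefSeq span chromosome 2, 115861264 to 116067537, mm10/GRCm38), which acts in neural crest and limb development, had 391 and 420 counts in the WT libraries and 872 and 746 in the CBE-KO libraries. Scaled, these were 26.7 and 30.5 CPM against 53.6 and 51.2 CPM. Both CBE-KO libraries were above both WT libraries, with ratios between single libraries of 1.68 to 2.01. Meis2 rose 1.83-fold, a log2 fold change of 0.88 ± 0.08 (SE), with a 95% interval of 0.70 to 1.05 (adjusted p = 1.64e-07 in edgeR). Of all genes tested, 87.8% had a smaller absolute log2 fold change.

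Meis1 (ENSMUSG00000020160; RefSeq span chromosome 11, 18880428 to 19019651), best known for its part in blood stem cells and leukaemia together with HoxA genes, had 187 and 148 counts in the WT libraries and 319 and 302 in the CBE-KO libraries. These corresponded to 12.8 and 10.7 CPM in WT and to 19.6 and 20.7 CPM in CBE-KO. The groups did not overlap, and single-library ratios ran from 1.54 to 1.93. Meis1 rose 1.71-fold, a log2 fold change of 0.78 ± 0.13 (SE), with a 95% interval of 0.51 to 1.04 (adjusted p = 8.09e-05 in edgeR).

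Meis3 (ENSMUSG00000041420; RefSeq span chromosome 7, 16174012 to 16186510), linked to hindbrain patterning, had the lowest counts of the 8 genes, 55 and 38 in the WT libraries and 43 and 43 in the CBE-KO libraries. At 3.76 and 2.76 CPM against 2.65 and 2.95 CPM, the groups overlapped. Its log2 fold change was -0.23 ± 0.26 (SE, adjusted p = 0.528 in edgeR), and the 95% interval of the fold, 0.58 to 1.26, does not reach the 1.43-fold lower bound of Meis1. Without WT replicate 1 its estimate was 0.016. Together the 3 Meis genes summed to 43.3 and 44.0 CPM in WT and to 75.9 and 74.9 CPM in CBE-KO, with Meis2 giving most of the difference.

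Among the Pbx genes the directions were mixed. Pbx2 (ENSMUSG00000034673; RefSeq span chromosome 17, 34592259 to 34597400), a broadly expressed Hox partner, had 2752 and 2635 counts in the WT libraries and 2530 and 2251 in the CBE-KO libraries. Scaled expression was 188 and 191 CPM in WT and 156 and 154 CPM in CBE-KO, without overlap and with little spread within a group. Pbx2 fell by 18.2%, a log2 fold change of -0.29 ± 0.05 (SE), with a 95% interval of -0.39 to -0.19 (adjusted p = 9.84e-05 in edgeR). The change was small: 51.7% of all genes had a smaller absolute log2 fold change. Library totals alone gave -0.19 (edgeR adjusted p = 0.00372), still lower in CBE-KO, and on that scale the median of all genes was 0.11.

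Pbx3 (ENSMUSG00000038718; RefSeq span chromosome 2, 34171457 to 34372045), which is needed for the hindbrain control of breathing, had 129 and 122 counts in the WT libraries and 228 and 177 in the CBE-KO libraries. These were 8.81 and 8.86 CPM against 14.0 and 12.1 CPM, with all CBE-KO values above the WT values. Pbx3 rose 1.48-fold, a log2 fold change of 0.57 ± 0.15 (SE), with a 95% interval of 0.26 to 0.88 (adjusted p = 0.00445 in edgeR). The call rested on CBE-KO replicate 1, the higher of the pair, without which the log2 fold change was 0.46 (edgeR adjusted p = 0.0574).

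Pbx4 (ENSMUSG00000031860; RefSeq span chromosome 8, 69832476 to 69872292), a family member known for expression in testis, had 129 and 98 counts in the WT libraries and 187 and 149 in the CBE-KO libraries. At 8.81 and 7.11 CPM against 11.5 and 10.2 CPM, the CBE-KO libraries were higher, the closest pair by a ratio of 1.16. Pbx4 rose 1.36-fold, a log2 fold change of 0.45 ± 0.16 (SE), with a 95% interval of 0.11 to 0.79 (adjusted p = 0.0337 in edgeR). This was the least firm of the 5 calls. The DESeq2 adjusted p was 0.170, and without WT replicate 2 or CBE-KO replicate 1 the log2 fold changes of 0.30 and 0.36 did not pass (edgeR adjusted p = 0.211 and 0.188). DESeq2 called 4 of the 8 members, beside 28.6% of all genes. Without CBE-KO replicate 1, edgeR called 3 of the 8, beside 33.0%. At an adjusted p under 0.01 it called 4, beside 30.7%, and with the replicate number as a block 5, beside 43.9%.

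Neither Pknox gene passed. Pknox1 (ENSMUSG00000006705; RefSeq span chromosome 17, 31564722 to 31607693), also called Prep1, is needed for survival of the early epiblast. It had 421 and 384 counts in the WT libraries and 458 and 379 in the CBE-KO libraries, or 28.8 and 27.9 CPM against 28.2 and 26.0 CPM. The groups overlapped, and the log2 fold change was -0.06 ± 0.09 (SE, adjusted p = 0.600 in edgeR), with a 95% interval of the fold from 0.84 to 1.09. Pknox2 (ENSMUSG00000035934; RefSeq span chromosome 9, 36890979 to 37147342), its paralogue, had 113 and 111 counts in the WT libraries and 113 and 116 in the CBE-KO libraries, or 7.72 and 8.06 CPM against 6.95 and 7.96 CPM. Its log2 fold change was -0.08 ± 0.17 (SE, adjusted p = 0.726 in edgeR), with an interval of the fold from 0.74 to 1.21. Both estimates changed sign with library totals alone, to 0.041 and 0.020, and that of Pknox2 also without CBE-KO replicate 1, to 0.013. The interval of Pknox1 excludes the estimates of a 1.83-fold rise of Meis2 and an 18.2% fall of Pbx2 alike, while that of Pknox2 contains the latter. The Pbx2 interval of the fold, 0.76 to 0.88, overlaps that of Pknox1. Overlap of intervals does not decide whether these 2 changes differ, and their difference was not tested.

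**Figure D2:**
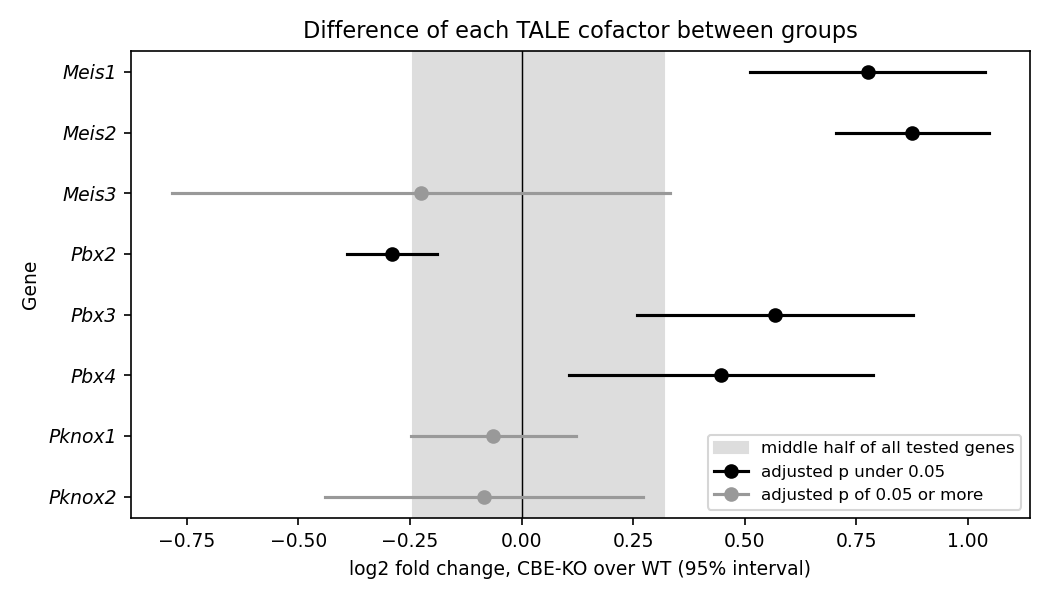
The log2 fold change of each TALE gene, CBE-KO over WT (horizontal axis), with its 95% interval from the edgeR fit; black marks an adjusted p under 0.05 and the grey band runs from the lower to the upper quartile of all 16005 genes, -0.24 to 0.32. The estimates of Meis1, Meis2, Pbx3 and Pbx4 lie above the band, that of Pbx2 just below it, and the remaining 3 inside it. The intervals of Pbx2, Pbx3 and Pbx4 reach into the band, and those of Meis3, Pknox1 and Pknox2 extend beyond it.

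Ratios of members within a library do not depend on how libraries were scaled, and a change of such a ratio between libraries does not depend on transcript length. With 2 libraries per group an exact two-sided permutation test cannot go below p = 0.333, so the ratios are given as values. For each 100 Meis2 counts there were 47.8 and 35.2 Meis1 counts in the WT libraries and 36.6 and 40.5 in CBE-KO, overlapping ranges. Meis3 counts per 100 Meis2 counts were 14.1 and 9.05 in WT and 4.93 and 5.76 in CBE-KO, lower in both CBE-KO libraries. Since Meis3 levels overlapped between the groups, this too restates the rise of Meis2.

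Pbx3 and Pbx4 were higher relative to Pbx2 in CBE-KO. Pbx3 counts per 100 Pbx2 counts went from 4.69 and 4.63 to 9.01 and 7.86. For Pbx4 they went from 4.69 and 3.72 to 7.39 and 6.62. Meis2 counts per 100 Pbx2 counts were 14.2 and 15.9 in WT and 34.5 and 33.1 in CBE-KO, and Meis1 counts 6.80 and 5.62 against 12.6 and 13.4. None of these 4 ratios overlapped between the groups. That separation follows from the levels above, where both CBE-KO libraries were lower for Pbx2 and higher for Pbx3, Pbx4, Meis2 and Meis1, and is no further result.

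Meis2 was also higher relative to Pknox1, its competitor for Pbx proteins. There were 92.9 and 109 Meis2 counts per 100 Pknox1 counts in the WT libraries and 190 and 197 in CBE-KO. Since Pknox1 levels overlapped between the groups, this restates the rise of Meis2 and is no further result. The pair of Pknox genes kept overlapping ratios, with 26.8 and 28.9 Pknox2 counts per 100 Pknox1 counts in the WT libraries and 24.7 and 30.6 in CBE-KO.

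**Figure D3:**
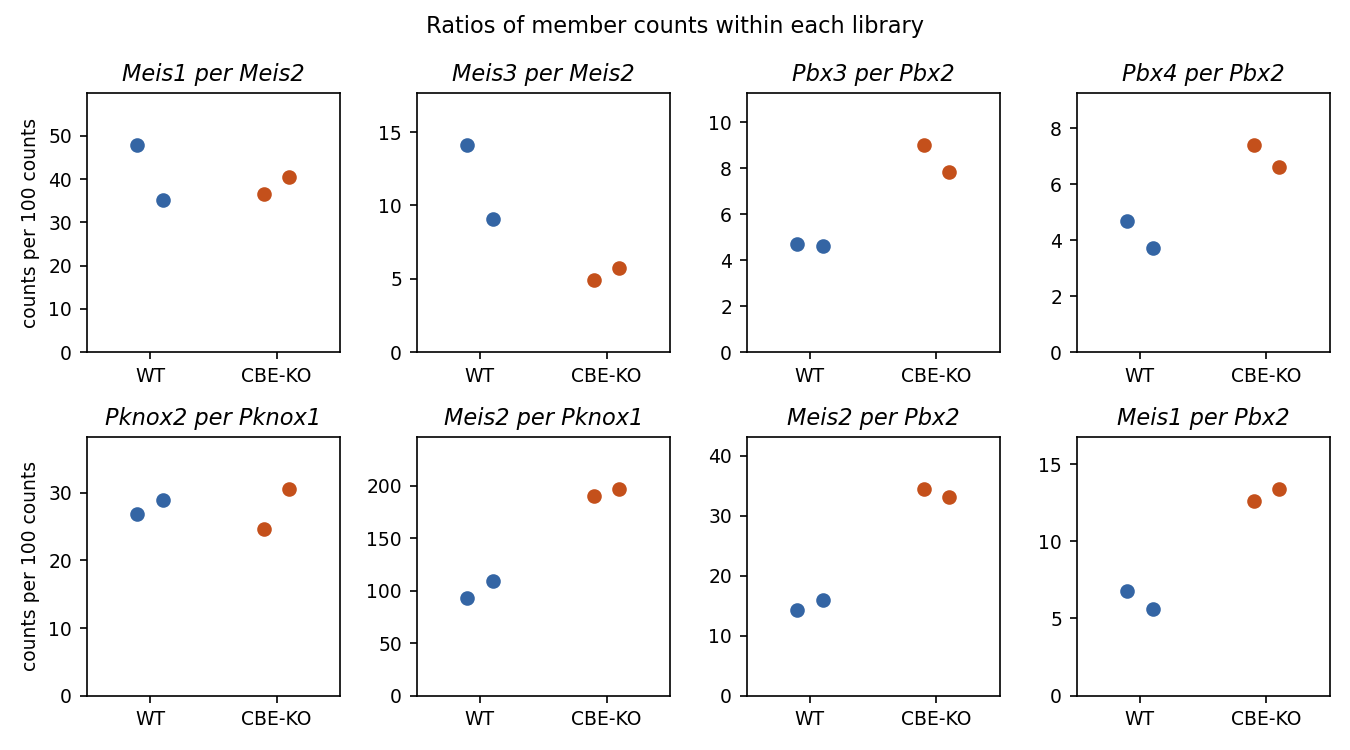
Counts of one TALE gene per 100 counts of another within each library (vertical axes, each starting at 0), WT in blue and CBE-KO in orange, 1 point per library. Ratios to Pbx2 and the ratio of Meis2 to Pknox1 are higher in both CBE-KO libraries, Meis3 per Meis2 is lower, and Meis1 per Meis2 and Pknox2 per Pknox1 overlap.

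RefSeq promoter windows (GRCm38.p6) were given for 5 of the 8 genes: Meis1, Meis2, Meis3, Pbx2 and Pbx4. The 250 bases before the start site are shown for the pair that rose most and for the gene that fell, to set their base composition side by side. Each is written 5′ to 3′ on the gene's strand with CG dinucleotides in capitals. The Meis1 window is chr11:19018970-19019219 on the minus strand, the Meis2 window chr2:116064620-116064869 on the minus strand and the Pbx2 window chr17:34592009-34592258 on the plus strand. The Meis1 and Meis2 windows lie inside the RefSeq gene spans, which reach further upstream.
Meis1: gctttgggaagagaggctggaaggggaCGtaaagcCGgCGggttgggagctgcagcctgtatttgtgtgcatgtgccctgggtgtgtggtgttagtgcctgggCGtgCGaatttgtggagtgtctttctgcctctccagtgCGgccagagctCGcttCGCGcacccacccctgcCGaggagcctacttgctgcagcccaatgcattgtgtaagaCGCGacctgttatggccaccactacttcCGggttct
Meis2: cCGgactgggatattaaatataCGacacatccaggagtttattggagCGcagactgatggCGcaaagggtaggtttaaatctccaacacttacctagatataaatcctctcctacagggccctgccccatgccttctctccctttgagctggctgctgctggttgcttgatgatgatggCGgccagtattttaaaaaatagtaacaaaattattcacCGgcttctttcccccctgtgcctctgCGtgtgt
Pbx2: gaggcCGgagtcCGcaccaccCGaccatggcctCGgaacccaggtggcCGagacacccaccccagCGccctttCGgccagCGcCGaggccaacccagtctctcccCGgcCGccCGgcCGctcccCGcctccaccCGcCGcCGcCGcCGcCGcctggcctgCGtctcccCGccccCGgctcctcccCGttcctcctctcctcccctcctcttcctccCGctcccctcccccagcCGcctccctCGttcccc

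The GC content of the Pbx2 window was 77.6%, above 97.6% of the 32851 windows of this length, and it held 27 CG dinucleotides. The Meis1 window had 59.6% GC and 13 CG dinucleotides, and the Meis2 window 47.6% GC and 7, where the median window had 52.4% GC and 6. The Meis2 window thus lay below the median GC content and the Meis1 and Pbx2 windows above it. On both strands the 5 windows were searched for TGACAG (the Meis and Pknox core, in 15.9% of all windows), TGATNNAT (a Pbx-Hox site, in 7.68%), TGATTGAC (adjoining Pbx and Meis or Pknox cores, in 0.691%) and AGGTCA (a single receptor-binding unit of a retinoic acid response element, in 14.0%). Direct repeats of AGGTCA spaced by 2 or by 5 bases were searched as well, each in 0.00913% of windows; TGATTGAC can overlap TGACAG, and the repeats contain the single unit. No member window held any of these letters. TATAAA, in 12.4% of windows, occurred once, in the Meis2 window from 152 to 147 bases before the start.

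Genes beside the members were read from the same fit. A noncoding gene overlapping Meis1 (Gm16141) had 1, 0, 1 and 0 counts over WT 1, WT 2, CBE-KO 1 and CBE-KO 2, and one overlapping the upstream end of Meis2 (G630016G05Rik) had 0, 1, 6 and 2. These counts are small beside those of Meis1 and Meis2. No source says whether strand was used when reads were counted, so sense and antisense reads cannot be told apart. Of 16 nearest coding neighbours 15 were tested and 3 passed, beside 43.1% of all genes. Mvb12b, 283511 bases from Pbx3, rose (log2 fold change 0.90 ± 0.21, SE, adjusted p = 0.00241 in edgeR), as did Tmem218, 60881 bases from Pknox2 (1.03 ± 0.17, SE, adjusted p = 0.000128 in edgeR). Spred2, 904791 bases from Meis1, fell slightly (-0.14 ± 0.05, SE, adjusted p = 0.0356 in edgeR). BC052040, the tested neighbour of Meis2, had a log2 fold change of 0.01 ± 0.08 (SE, adjusted p = 0.924 in edgeR).

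The genes whose pattern over the 4 libraries came closest to that of the 2 members with the largest changes were found by the Euclidean distance of log2 CPM centred on each gene's mean. For Meis1, Selenon lay at a distance of 0.057, with 96 and 79 counts in the WT libraries and 173 and 164 in the CBE-KO libraries, and Frmd5 at 0.069, with 86 and 70 against 154 and 150. For Meis2 the nearest were Hoxd1 at 0.037, with 15 and 16 counts in the WT libraries and 36 and 31 in the CBE-KO libraries, then Rnf13 and Tmem108, both at 0.047. Such patterns were common: 20 genes lay within 0.1 of Meis1 and 30 within 0.1 of Meis2.

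The TALE class also holds, among others, the Irx genes, Mkx and the Tgif genes. Of 11 listed, 7 were tested, 2 rose, beside 21.6% of all genes, and none fell, beside 21.5%, with a median log2 fold change of 0.52. Irx2, of the Iroquois patterning genes, had 16 and 7 counts in the WT libraries and 75 and 78 in the CBE-KO libraries (log2 fold change 2.61 ± 0.33, SE, adjusted p = 5.94e-06 in edgeR). Mkx, a regulator of tendon genes, had 13 and 15 counts against 95 and 62 (2.35 ± 0.30, SE, adjusted p = 7.82e-06 in edgeR). Tgif1, a repressor that binds retinoid response elements, had 2005 and 1950 counts against 2349 and 2253, a log2 fold change of 0.10 ± 0.05 (SE, adjusted p = 0.125 in edgeR). With library totals alone or upper-quartile scaling, which called 44.5% and 42.9% of all genes, 4 of the 7 passed, all higher.

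Of the 39 Hox genes, the partners of these cofactors, 29 were tested, 22 rose and none fell, with a median log2 fold change of 1.22. Beside the 21.6% of all genes that rose, this stands next to 4 of 8 TALE members. Some Hox genes passed the expression filter through their CBE-KO counts alone, so they could only be called higher. Hoxc8 had 0 and 1 counts in the WT libraries and 53 and 34 in the CBE-KO libraries, and Hoxc6 2 and 2 against 58 and 47. The Hox count and median include such genes. Summed Hox expression was 266 and 277 CPM in WT and 524 and 549 CPM in CBE-KO.

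Proteins that bind or turn over TALE factors formed a list of 12, all tested, of which 3 passed, 1 higher and 2 lower, beside 43.1% of all genes. Cul4a, a scaffold of the ubiquitin ligase that with cereblon removes Meis2, rose (log2 fold change 0.26 ± 0.07, SE, adjusted p = 0.00455 in edgeR), a call that DESeq2 did not make (adjusted p = 0.052). Myh9 and Myh10, nonmuscle myosin heavy chains, the second of which can hold Pbx in the cytoplasm, fell by 0.32 and 0.31 on the log2 scale (edgeR adjusted p = 5.26e-05 and 7.58e-05). The other 9 did not pass. Pbxip1, a Pbx-binding inhibitor, had 155 and 160 counts in the WT libraries and 208 and 203 in the CBE-KO libraries (0.27 ± 0.14, SE, adjusted p = 0.130 in edgeR), and cereblon (Crbn) had a log2 fold change of 0.19 ± 0.10 (SE, adjusted p = 0.133 in edgeR). This list depended on scaling: 10 of the 12 passed with library totals alone, beside 44.5% of all genes. Of the 10, 8 were higher, beside 29.8% of all genes, and 2 lower, beside 14.7%. With upper-quartile scaling 6 passed, beside 42.9%.

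Of 12 genes known as targets of Hox or TALE proteins, 8 were tested, 3 rose, beside 21.6% of all genes, and 1 fell, beside 21.5%, with a median log2 fold change of 0.29. Pax6, which Meis proteins activate in the lens, had 10 and 9 counts in the WT libraries and 40 and 41 in the CBE-KO libraries (log2 fold change 1.96 ± 0.37, SE, adjusted p = 0.000337 in edgeR). Hoxa3 and Hoxb4 rose by log2 fold changes of 1.34 and 0.26, and the call of Hoxb4 was not made by DESeq2 (adjusted p = 0.0807). The targets Hoxa2, Hoxa3, Hoxb1, Hoxb2, Hoxb3 and Hoxb4 are also counted among the Hox genes above, and Pax6 among the neural progenitor markers below. Ccnd1, a G1 cyclin, fell (-0.80 ± 0.09, SE, adjusted p = 1.86e-06 in edgeR). Hoxb1 and Hoxb2, whose hindbrain enhancers are the classic Pbx-Hox-Meis sites, did not pass, at 0.20 ± 0.14 and 0.32 ± 0.39 (SE, adjusted p = 0.280 and 0.540 in edgeR). Pax3, Pdx1, Sst and Egr2 had at most 14 counts in any library and were not tested.

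**Figure D4:**
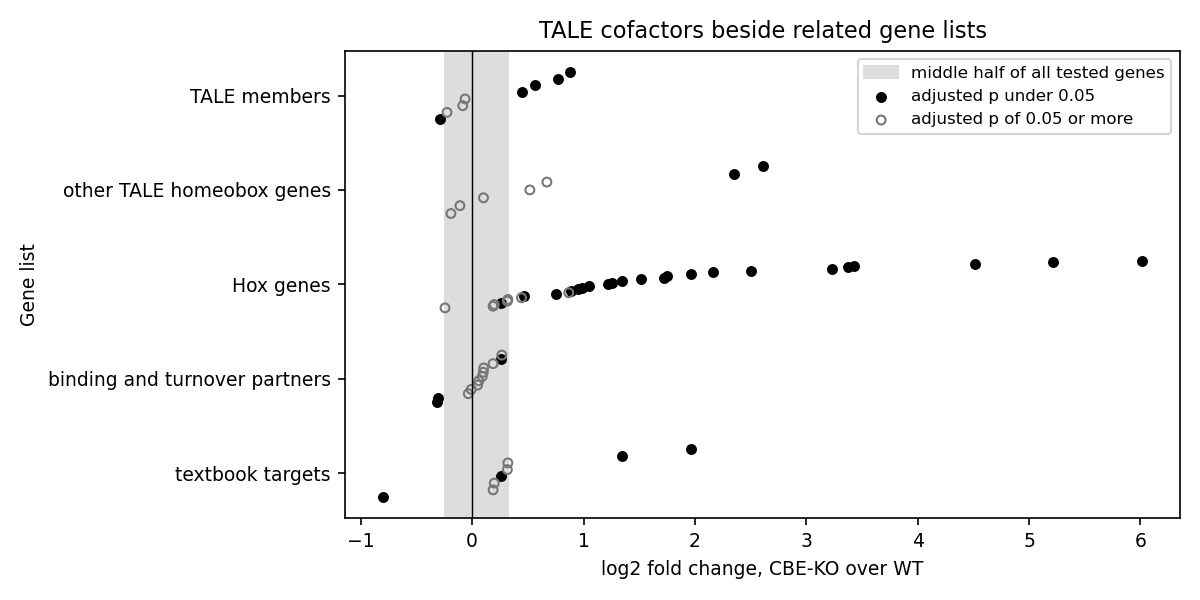
The log2 fold change, CBE-KO over WT (horizontal axis), of each tested gene in the TALE list and 4 related lists (vertical axis; position within a list follows rank), filled where the adjusted p was under 0.05. TALE members span -0.29 to 0.88, and tested Hox genes -0.24 to 6.01. The last value is that of Hoxc8, which had 0 and 1 counts in the WT libraries.

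Markers of cell state were read from the same fit, and their counts stand beside the 21.6% of all tested genes that rose and the 21.5% that fell. The 10 pluripotency markers summed to 5059 and 4898 CPM in WT and to 3795 and 3841 CPM in CBE-KO, with 7 lower and 2 higher past the threshold. Genes of the retinoic acid response, 12 in number, summed to 985 and 967 CPM against 1574 and 1634 CPM, 10 higher and 1 lower. Of 8 neural progenitor markers 6 rose and 1 fell, and the sums overlapped, at 102 to 113 CPM in WT and 109 CPM in both CBE-KO libraries. Tubb3, the marker that fell, gave 74.1 and 64.4 CPM of the WT sums and 40.3 and 41.1 CPM of the CBE-KO sums. Its fall therefore offset the rises in these sums. Markers with few WT counts could only be called higher, such as Zfp521 with 4 and 4 counts in WT against 54 and 53. The 8 primitive endoderm markers summed to 119 and 122 CPM in WT and to 146 and 150 CPM in CBE-KO (4 higher of 8 tested). The 8 trophoblast markers summed to 102 to 114 CPM in WT and 113 to 115 CPM in CBE-KO (2 higher and 1 lower of 7 tested). The 7 mesoderm markers summed to 4.58 and 4.50 CPM in WT and 6.46 and 6.65 CPM in CBE-KO (1 higher of 4 tested). The 8 fibroblast markers summed to 11.3 and 12.9 CPM against 14.8 and 17.6 CPM (1 higher of 2 tested). Among the 8, Postn, S100a4, Lum and Dcn had no count in any library. The part of these shifts in the changes of Meis1, Meis2, Pbx2, Pbx3 and Pbx4 was not tested, and fewer cells of a type cannot be told apart from less RNA per cell.

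**Figure D5:**
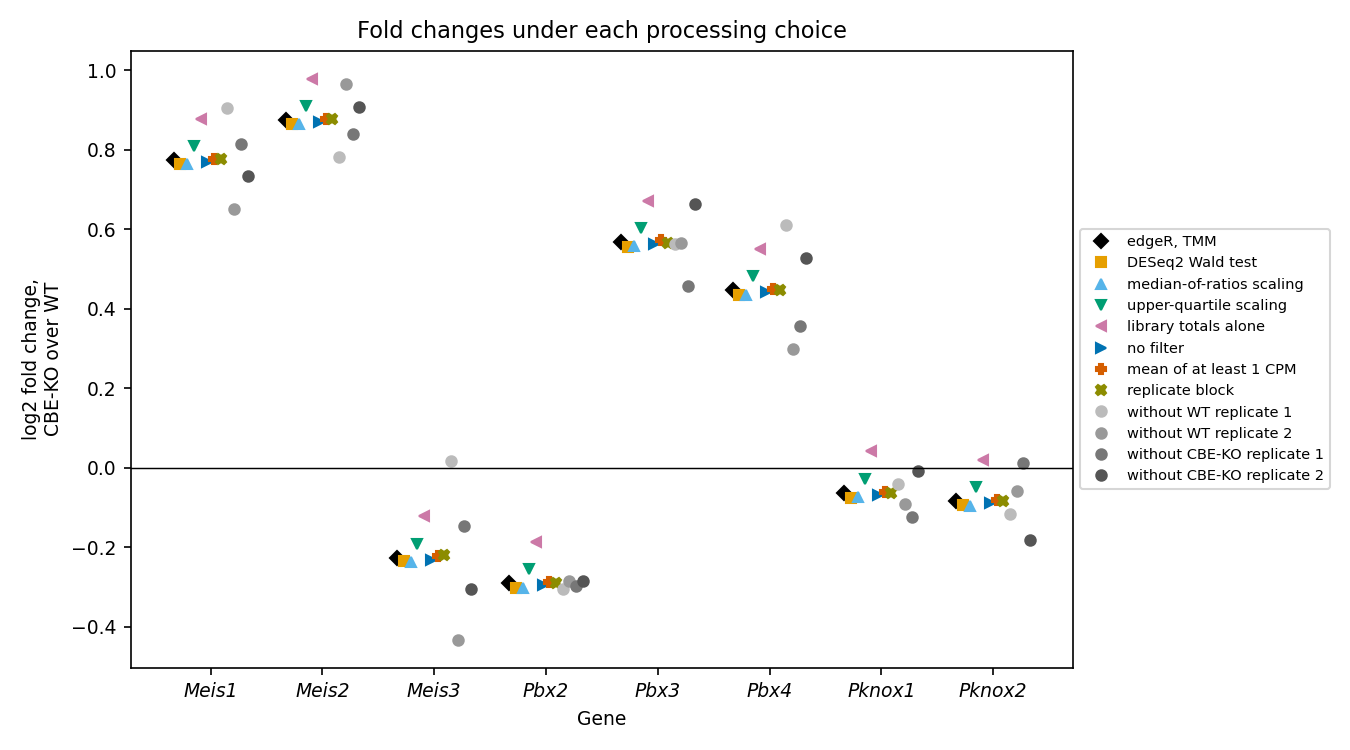
The log2 fold change of each TALE gene, CBE-KO over WT (vertical axis), under each scaling, filter and test and with each library left out (symbols in the key). Meis1, Meis2, Pbx3 and Pbx4 stay above 0 and Pbx2 below 0 at every point, while Meis3, Pknox1 and Pknox2 reach both sides.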

How the data were processed

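Whole-number read counts per Ensembl gene, unnormalized, were deposited by the authors for 4 RNA-seq libraries; Capture-C data from 6 further samples are not analysed here. Per the submitters' processing notes the tools included HISAT2 2.1.0, HTSeq 0.9.1, DESeq2 1.18.1 and Bowtie2 2.3.1, with build mm10; annotation release, strand setting and treatment of reads matching several genes are not given in the sources used here. Groups came from sample titles. Symbols matched 52403 of 52636 identifiers. The 8 members and all gene lists were chosen with earlier results of these data known; 2 further genes covered by the rules are not reported here.

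Genes passing filterByExpr (16005) were tested with edgeR 4.0.16 (R 4.3.3), TMM scaling, glmQLFit and glmQLFTest, two-sided, with Benjamini-Hochberg adjustment over all tested genes and a threshold of 0.05. CPM are TMM-scaled; errors are SD over 2 libraries or the SE of the log2 fold change. Named genes were all members, up to 4 passing genes with the largest change per related list, single genes of those lists given for contrast and chosen after their values were seen, neighbours, and the 3 nearest patterns of the 2 most changed members. Replicates differed by more than sampling noise (chi-square per degree of freedom 3.40 and 2.70). Alternatives were DESeq2 1.42.0, other scalings, filters and threshold, a replicate block and leaving out each library. In simulated counts over 16005 genes, edgeR recovered 116 of 200 genes changed by 0.5 on the log2 scale with 7 other calls, and 165 of 200 changed by 1 with 14. Only 200 genes were changed in each simulation, whereas the real fit called 6895. The adjusted threshold therefore cuts at another p, and these figures do not give the power or error of the real comparison.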

Additional observations from a re-analysis of the deposited data

How the results depend on the processing

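Meis1, Meis2 and Pbx2 kept their direction and passed in all 11 alternatives, with log2 fold changes of 0.65 to 0.91, 0.78 to 0.98 and -0.31 to -0.19. Pbx3 passed in 10 of 11 (0.46 to 0.67) and Pbx4 in 8 of 11 (0.30 to 0.61), both higher throughout. Meis3 became 0.0161 without WT replicate 1 (range over left-out libraries -0.433 to 0.0161). With library totals alone Pknox1 became 0.041 and Pknox2 0.0199, and Pknox2 became 0.0126 without CBE-KO replicate 1 (range -0.183 to 0.0126). None of these 3 passed in any alternative. The number of members that passed was 3 to 5 with 1 library left out, 3 without CBE-KO replicate 1; the lone library of a group is then assumed to vary like the other group. It was 4 in DESeq2 and at an adjusted p under 0.01. DESeq2 called 4577 genes in all, against 6895; the cause was not tested. At an adjusted p under 0.01 edgeR called 4917. Other TALE genes that passed numbered 4 with upper-quartile scaling or library totals, and binding and turnover partners 6 and 10. With the replicate block, 7028 genes and the same number of members, 5, passed. Titles share replicate numbers, and over genes the deviations of WT 1 and CBE-KO 1 from their group means correlated at 0.036. That value shows no strong shared effect, but cannot tell whether same-numbered libraries were prepared together. Levels per transcript length were planned and not run. The counts of Meis3, at most 55, limit what its test could detect.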
